A study of Mus musculus with 8 samples.

Results

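Pancreatic and endodermal lineage factors are the transcription factors that set up and maintain the identity of pancreatic cells. The set described here comprised 8 genes, Pdx1, Sox9, Hnf4a, Foxa1, Foxa2, Gata6, Ptf1a and Onecut2, taken by name. All 8 were found among the 34478 genes of the normalized count table. RNA-seq had been performed in 4 primary cell lines from murine pancreatic ductal adenocarcinoma (PDAC), numbered #1, #3, #5 and #10. Each line gave 1 library after treatment with the solvent DMSO and 1 after 48 h with the MEK inhibitor trametinib, each line at its own IC50. How long the DMSO treatment lasted is not given in the labels. All libraries of both groups share the genotype Ptf1awt/Cre;Kraswt/LSL-G12D;Trp53loxP/loxP. Cre is thus driven by the Ptf1a locus, so that 1 allele of a gene of the set carries the recombinase in every library. With 1 library per line and treatment, the lines serve as the replicates.

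In development, Pdx1 and Ptf1a specify the pancreas within the foregut endoderm, and Sox9 marks its progenitors and later its ducts. Foxa1 and Foxa2 are pioneer factors that open chromatin in endodermal organs, and the zinc finger factor Gata6 acts beside them. Hnf4a, a nuclear receptor, and Onecut2, a cut-homeodomain factor, belong to the network of hepatocyte nuclear factors of liver, gut and pancreas. In PDAC, high Gata6 and Hnf4a are known as marks of the classical, more differentiated subtype. Ptf1a holds the acinar state and is lost when acinar cells turn duct-like.

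With trametinib, Pdx1, Sox9 and Hnf4a fell and Onecut2 rose, whereas Foxa1, Foxa2 and Gata6 did not pass the test and Ptf1a was at or near 0 in both groups. Of the 8 genes, 7 reached a mean of 10 normalized counts and were tested. At an adjusted p under 0.05 in limma, 3 of the 7 were lower and 1 was higher, where 25.6% of the 15888 genes tested were lower, 27.3% higher and 53.0% changed in either direction. The share of changed genes in the set was thus near the background, and the values that follow describe each factor. All changes are log2 ratios of trametinib to DMSO after adding 1 to each value, and the error behind ± is the standard error of the limma fit unless SD is stated. The median change of the 7 genes was 0.13, against 0.07 for all genes tested.

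The libraries summed to 33385299 to 36385719 normalized counts with DMSO and to 30680091 to 33063309 with trametinib. Every trametinib library thus summed below every DMSO library. From the step between low values, 3 reads, taken as the floor of detection, came to 2.34 to 3.72 normalized counts per library, which covers counting error only. Over all genes, 4341 were higher and 4075 lower in limma. With libraries rescaled to equal totals these counts were 5333 and 3285, and the median change of all genes moved by 0.13. Dusp6, a feedback phosphatase induced by ERK, checked the drug and fell in 4 of 4 lines (-2.51 ± 0.14, adjusted p = 0.00012 in limma). Of the 10 MAPK activity genes, 9 were lower and 0 higher, where 25.6% of all genes tested were lower and 27.3% higher. The remaining gene, Epha4, named after its values were seen, rose in 4 of 4 lines without passing (0.87 ± 0.31, adjusted p = 0.05 in limma). The epithelial genes Cdh1, Krt8 and Krt18 were abundant in every library, while Epcam, a further defining epithelial marker, was listed at 0 in 6 of 8 libraries. With Epcam, also Esrp1, Grhl2, Ovol1 and Ovol2, 5 of 11 epithelial genes listed, did not reach a mean of 10. The mesenchymal gene Vim was abundant too, at 31314 to 89101 per library. Of the 6 epithelial genes tested, 4 were lower and 0 higher, against the 25.6% and 27.3% of all genes given above, and of 10 mesenchymal genes, 4 were higher and 3 lower. Without the line as a block, the 4 epithelial genes and the 3 lower mesenchymal genes did not pass (adjusted p = 0.072 to 0.14 and 0.052 to 0.17 in limma), nor did Zeb2 among the higher (adjusted p = 0.18). Krt8 and Elf3 were also lost with equal totals, with quantile normalization, without trend and without line #5 (adjusted p = 0.051 to 0.11 in limma), and Elf3, Twist2 and Prrx1 without the filter (adjusted p = 0.06, 0.06 and 0.075). Twist2 was lost without line #1 or #3 (adjusted p = 0.088 and 0.056) and Prrx1 without line #1, #5 or #10 (adjusted p = 0.11, 0.06 and 0.1 in limma), and Prrx1 reached the mean of 10 only through its DMSO libraries. Trp53 RNA was counted at 196 to 355 per library and does not check the deletion, since the labels do not say which exons are deleted.

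The 10 fibroblast markers summed to 96.9 to 369 normalized counts per library with DMSO and 440.0 to 1260.0 with trametinib, while Lum was listed at 0 throughout and Col1a2 did not exceed 4.29. The 6 leukocyte markers in the table summed to 150.0 to 232 and then 231 to 510.0, with Cd68 at 129.8 to 228 in every library and Lyz2 at or below 1.91. The 5 endothelial markers summed to 30.9 to 55.4 and then 62.7 to 831, with Emcn at or below 1.02. Of these markers, 5 fibroblast, 3 leukocyte and 3 endothelial genes were tested. In each list 1 gene was higher and 0 lower, namely Col1a1, Csf1r and Tek, where 27.3% of all genes tested were higher and 25.6% lower. The other markers tested were not called. Within the sums, Col1a1 stood at 30.05 to 130 with DMSO and 360 to 1110 with trametinib. In the same order, Csf1r stood at 1.05 to 46.9 and 14.2 to 340, and Tek at 1.3 to 21.5 and 13.5 to 805. A higher sum can thus rest largely on 1 gene. Csf1r did not pass without the block (adjusted p = 0.089 in limma), and Tek, with a DMSO mean of 8.21, reached the mean of 10 only through the trametinib libraries. The part of such cells in the changes below was not tested. In bulk samples, fewer cells of a type and less RNA per cell cannot be told apart.

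Baseline levels were compared between genes per kb of transcript, since a long transcript collects more reads. The length used was the union of all exons of a gene in GENCODE M21. It can exceed the length of the transcripts expressed here, so the order between genes depends on it. On that scale, Hnf4a was the most abundant factor of the set in DMSO, at 2289 ± 305 normalized counts per kb (SD, n = 4 lines). Foxa2 followed at 1153 ± 123, Onecut2 at 827 ± 98.9 and Pdx1 at 723 ± 87.7 (SD) on the same scale. Gata6 stood at 337 ± 89.9, Sox9 at 146 ± 106 and Foxa1 at 140.0 ± 76.9 per kb (SD). Without the correction for length, Onecut2 would rank above Hnf4a, because its annotated exons span 16.23 kb against 4.83 kb for Hnf4a. Between neighbours in this order, the ranges over the 4 lines did not overlap for Hnf4a and Foxa2, for Foxa2 and Onecut2, and for Pdx1 and Gata6. Those of Onecut2 and Pdx1, of Gata6 and Sox9, and of Sox9 and Foxa1 overlapped.

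**Figure D1:**
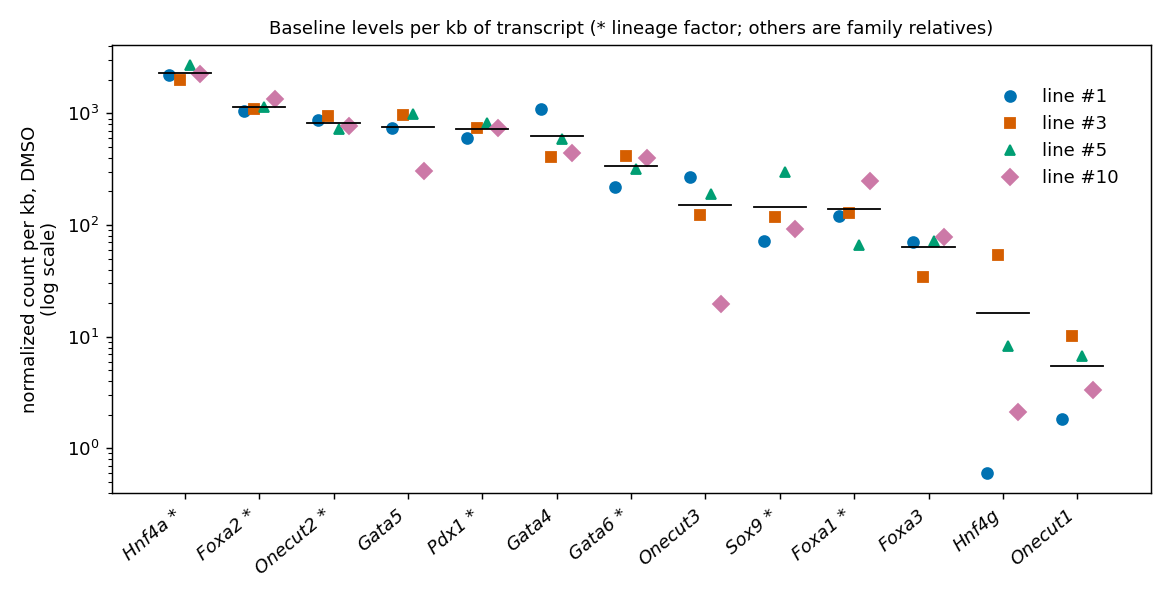
Normalized counts per kb of transcript in the 4 DMSO libraries (y axis, log scale) for lineage factors (marked *) and their family relatives, where symbols are cell lines and bars are means over the lines. Hnf4a leads at 2289 per kb and Onecut1 is the lowest gene drawn at 5.51, and Ptf1a, Sox10 and Sox8 are not drawn because each is listed at 0 in at least 1 DMSO library.

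The DMSO levels of 4 of the 7 factors were close between the lines. The highest was 1.26 times the lowest for Foxa2, 1.3 times for Onecut2, 1.35 times for Pdx1 and 1.36 times for Hnf4a, against a median of 1.66 times over all genes tested. That median includes genes down to a mean of 10, whose ratios are widened by counting error. Genes of like abundance were not compared. For Gata6 the ratio was 1.91, with line #1 lowest. Foxa1 spanned 3.72 times, from line #5 to line #10, and Sox9 spanned 4.22 times, from line #1 to line #5. With 1 DMSO library per line, a difference between lines has no replicate and was not tested.

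To show the sequence before annotated start sites of the factors, promoter windows were taken from RefSeq on GRCm38.p6. In the set of windows used, 5 of the 8 genes were matched. Windows of Hnf4a and Pdx1, which fell, and of Foxa1 and Foxa2, which were not called, are given 5′ to 3′ on the strand of the gene. Each is the table's window, without what lies more than 30 bases into a GENCODE M21 exon, which left 142 bases for Pdx1 and 231 for Hnf4a. Foxa2 has 3 windows, of which the outermost is shown. The Hnf4a window lies at the annotated start of the gene, and none from further inside the gene is shown. The Foxa1 window precedes the RefSeq start but lies within the gene as GENCODE M21 annotates it, since another transcript there starts further upstream. Capitals mark matches, on either strand, to short motifs of the factor families themselves.
Hnf4a window at chr2:163506607-163506837, plus strand: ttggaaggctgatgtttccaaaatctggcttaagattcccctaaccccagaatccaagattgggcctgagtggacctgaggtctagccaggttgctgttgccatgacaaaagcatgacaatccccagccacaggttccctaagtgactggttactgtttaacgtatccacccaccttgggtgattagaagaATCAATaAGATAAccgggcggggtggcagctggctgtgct
Pdx1 window at chr5:147269847-147269988, plus strand: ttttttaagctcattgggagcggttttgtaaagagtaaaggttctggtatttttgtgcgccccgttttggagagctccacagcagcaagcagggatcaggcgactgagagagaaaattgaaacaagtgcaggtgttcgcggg
Foxa1 window at chr12:57546112-57546361, minus strand: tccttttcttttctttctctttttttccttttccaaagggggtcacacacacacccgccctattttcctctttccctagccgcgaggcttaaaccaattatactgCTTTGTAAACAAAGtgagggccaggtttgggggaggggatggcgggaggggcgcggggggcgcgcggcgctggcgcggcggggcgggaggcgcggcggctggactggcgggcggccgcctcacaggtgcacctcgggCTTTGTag
Foxa2 window at chr2:148046970-148047219, minus strand: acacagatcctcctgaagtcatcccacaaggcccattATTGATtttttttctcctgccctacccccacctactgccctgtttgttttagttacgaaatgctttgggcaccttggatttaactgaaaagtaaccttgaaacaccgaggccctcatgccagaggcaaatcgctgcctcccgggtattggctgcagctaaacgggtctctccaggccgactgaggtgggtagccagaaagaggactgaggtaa

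The motifs were searched on both strands, and their share is given over all 32851 windows of 250 bases. The Hnf4a window held 1 match to the ONECUT motif ATTGAT, found in 6.72% of all windows. Beside it stood 1 match to the GATA motif AGATAA, found in 9.99%. The Foxa1 window held 1 match to the FOXA motif TGTTTAC, found in 3.17%. It also held 3 matches to the SOX motif ACAAAG, found in 16.5%, and 2 of these overlap the FOXA match. The Foxa2 window shown held 1 ONECUT match, and none of the letters searched was in the Pdx1 window. Also searched was the PDX1 motif TAATTA, found in 4.84%. The ETS motif CCGGAA was found in 12% and the AP-1 motif TGANTCA in 6.75%. Of the Foxa2 windows not shown, 1 held 1 ETS match, and the other held 1 GATA and 1 SOX match. The Ptf1a window, also not shown, held none of the motifs. A match describes the letters and is no evidence of binding.

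Pdx1, a homeodomain factor that specifies the pancreas and later maintains beta cells, occupies bases 147269959 to 147275848 of chromosome 5 in GRCm38. Its normalized counts with DMSO were 1306, 1590.1, 1764 and 1581 in lines #1, #3, #5 and #10. With trametinib they became 678, 505, 688 and 732. Each trametinib library was thus below each DMSO library, a separation found with lower values in 16.2% of all genes tested. The change in limma was -1.27 ± 0.14, adjusted p = 0.00068, a fall to 0.416 of the DMSO level, the deepest in line #3 (-1.65) and the smallest in line #1 (-0.94). The lines remained close to each other, with the highest at 1.45 times the lowest after treatment.

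Transcripts next to Pdx1 fell with it. Plut, a noncoding transcript on the opposite strand whose exons do not overlap those of Pdx1, was counted at 317, 542, 297 and 393 in the DMSO libraries of the 4 lines. The trametinib libraries held 147, 454, 129 and 161. Plut fell in 4 of 4 lines (-0.96 ± 0.20, adjusted p = 0.0074 in limma, and 0.11 without the line as a block), though the groups overlapped. Gm27033, a noncoding gene on the same strand, stood at 74.2 to 121 with DMSO and 40.3 to 66.0 with trametinib and fell as well (-0.91 ± 0.20, adjusted p = 0.0095 in limma). In line #3, where Pdx1 fell most, Plut fell least, by 0.26. The microRNA gene Mir7k was listed at 0 in every library.

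Hnf4a lies on chromosome 2 from 163506808 to 163572910 and controls genes of lipid transport and epithelial differentiation in liver and gut. The DMSO libraries of lines #1, #3, #5 and #10 held 10607, 9623, 13106 and 10876 normalized counts. The trametinib libraries held 6347, 4002, 8585 and 8753. The groups did not overlap, although line #10 fell by only 0.31, against 1.27 in line #3. In limma the change was -0.73 ± 0.15, adjusted p = 0.007, or 0.602 of the DMSO level. Without the line as a block, the adjusted p was 0.054. The gene has separate promoters, known as P1 and P2, whose products the table sums, so the promoter in use cannot be read from these values. The window given above lies at the outermost annotated start and does not show both promoters. Its neighbour R3hdml was not called (0.07 ± 0.21, adjusted p = 0.8 in limma), and Hnf4aos and Gm25881 were near or under the floor.

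Sox9, an HMG-box factor of pancreatic progenitors and ducts, lies on chromosome 11 from 112782224 to 112787760. Line by line, its DMSO levels were 295, 482, 1246 and 385. After trametinib they were 162, 65.5, 828 and 123. Sox9 fell in each line, but the groups overlapped, because line #5 with trametinib was above the other 3 lines with DMSO. The fitted change was -1.49 ± 0.36, adjusted p = 0.013, and lines ranged from -2.86 in line #3 to -0.59 in line #5. Without the line as a block, the adjusted p was 0.17. After treatment the lines differed more than before, with the highest at 12.5 times the lowest. The noncoding neighbours BC006965 and Gm11681 were at or under the floor throughout.

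Onecut2 lies on chromosome 18 from 64340020 to 64400987 and was the factor of the set that rose. In DMSO it was counted at 14104, 15342, 11759 and 12516 in the 4 lines. Trametinib brought it to 17191, 31739.7, 17397 and 21061. Every trametinib library was above every DMSO library, as was the case for 15.1% of all genes tested. The limma change of 0.66 ± 0.13, adjusted p = 0.0062 equals a rise to 1.58 times, with lines from 0.29 in line #1 to 1.05 in line #3. Per kb, Onecut2 stood at 1346 ± 421 with trametinib and Hnf4a at 1434 ± 463 (SD, n = 4 lines), so that their ranges, apart in DMSO, overlapped. The neighbour St8sia3os stood at 2.91 to 7.38 with DMSO and 8.96 to 20.9 with trametinib and was not tested.

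Line #3 had the largest change in each of the 4 factors that passed. The same held for 56.4% of all genes called, and the median absolute change of all genes tested was 0.72 in line #3 and 0.5 to 0.55 in the other lines. Each line received its own concentration of the drug, so line and concentration cannot be told apart.

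**Figure D2:**
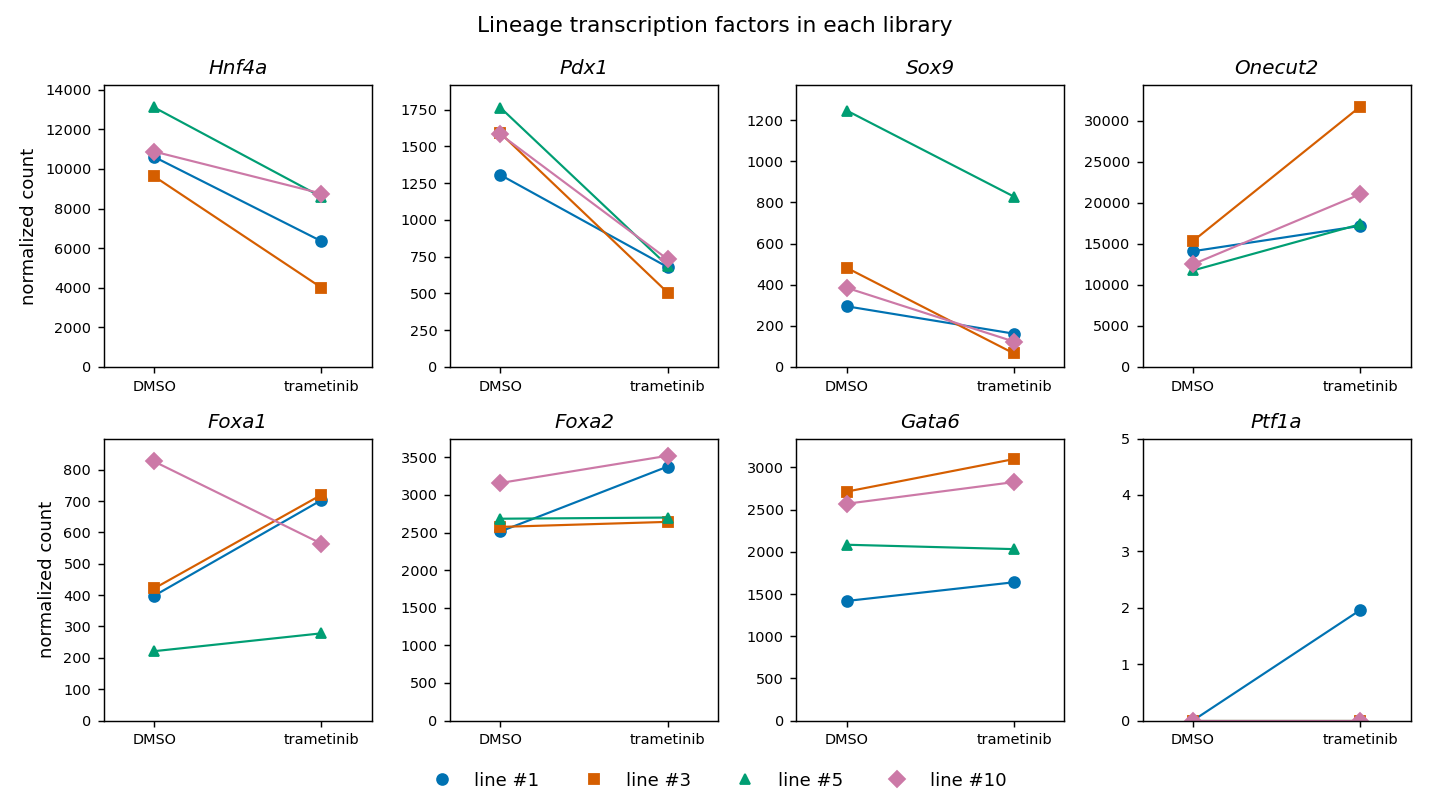
Normalized counts of each lineage factor (y axes, linear from 0, each panel with its own scale) with DMSO and with trametinib, where each symbol is 1 library and a line joins the libraries of a cell line. Hnf4a, Pdx1 and Sox9 go down in 4 of 4 lines and Onecut2 goes up in 4 of 4, while Foxa1 goes down in line #10 only and Ptf1a is at 0 in 7 of 8 libraries.

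The forkhead pioneer factors were not called. Foxa1, on chromosome 12 from 57540628 to 57546916, was at 398, 421, 221 and 826 in the DMSO libraries and at 703, 719.9, 278 and 564 in the trametinib libraries of the 4 lines. It was thus raised in lines #1, #3 and #5 and lowered in line #10, the line with the highest DMSO level. The change was 0.34 ± 0.24, adjusted p = 0.26 in limma, with a 95% interval of -0.22 to 0.91. Without line #10 it was 0.64 and passed (adjusted p = 0.031 in limma).

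Foxa2, on chromosome 2 from 148042877 to 148046969, was at 2514, 2575, 2684 and 3159 in DMSO. With the inhibitor it was at 3378, 2642, 2699 and 3521. Lines #3 and #5 moved by 0.04 and 0.01 and line #1 by 0.43. The change was 0.16 ± 0.10, adjusted p = 0.22 in limma, and its 95% interval was -0.08 to 0.39. The noncoding gene 9030622O22Rik, near Foxa2 on the same strand, rose in 4 of 4 lines. Its counts were 424, 855, 423 and 259 before and 916, 2190.1, 674 and 528 with trametinib (1.04 ± 0.14, adjusted p = 0.0012 in limma, and 0.14 without the block). The difference between the changes of both genes was not tested.

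Gata6, on chromosome 18 from 11052064 to 11085635, was at 1417, 2714, 2084 and 2569.8 in the DMSO libraries. The trametinib libraries had 1639, 3099.7, 2032 and 2827. The order of the lines was the same in both groups, with line #3 highest and line #1 lowest. Its change was 0.13 ± 0.09, adjusted p = 0.25 in limma, with a 95% interval of -0.08 to 0.33. With libraries rescaled to equal totals, Gata6 and Foxa2 passed as higher, at 0.25 (adjusted p = 0.038) and 0.28 (adjusted p = 0.041) in limma. The antisense gene 1010001N08Rik, whose exons share 93 bases with those of Gata6, was not called (0.83 ± 0.31, adjusted p = 0.061 in limma) but passed without line #5 (1.17, adjusted p = 0.018) and with equal totals (0.95, adjusted p = 0.036). Whether the counting used strand is not given in the sources used here, so reads in those bases could come from either gene.

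Ptf1a, the basic helix-loop-helix factor of acinar cells on chromosome 2 from 19445663 to 19447501, was listed at 0 in all 4 DMSO libraries. With trametinib it was listed at 1.96 in line #1, below that library's floor of 2.94, and at 0 in the other lines. Levels under the floor were not detectable at this depth, and Ptf1a was not tested. Of 21 listed acinar enzymes, 19 were in the table and 3 reached a mean of 10. Of these, the elastase gene Cela1 fell (-0.73 ± 0.21, adjusted p = 0.026 in limma), from 24.8 to 247 with DMSO to 15.6 to 123 with trametinib. The call was lost without line #1, #5 or #10 (adjusted p = 0.053, 0.092 and 0.13 in limma) and without the block (adjusted p = 0.52). Cpa1, a carboxypeptidase of acinar cells, was listed at 0 in every library. Of 9 endocrine products in the table, Slc2a2 alone was tested and was not called (adjusted p = 0.37 in limma), and Ins2, Gcg and Sst were listed at 0 throughout.

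Among 8 family relatives, 6 were tested, with 1 higher and 2 lower in limma, where 53.0% of all genes tested were called. Onecut1, also known as HNF6 and required for duct and endocrine development, rose with Onecut2. Its DMSO counts were 7.55, 41.7, 27.9 and 13.6 and its trametinib counts 65.7, 191, 78.2 and 54.5. The groups did not overlap, and the change in limma was 2.13 ± 0.31, adjusted p = 0.0017, a rise to 4.37 times. Per kb it remained far below Onecut2, at 23.7 ± 15.4 (SD, n = 4 lines) with trametinib.

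Onecut3 moved the other way. It was counted at 1281, 587, 909 and 94.1 in DMSO and at 238, 201, 161 and 81.8 with trametinib. Line #10, lowest in DMSO, fell by only 0.2, whereas lines #1, #3 and #5 changed by -2.49 to -1.54. In limma the change was -1.66 ± 0.38, adjusted p = 0.0098, and the adjusted p was 0.13 without the block.

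In the GATA family, Gata5 was counted at 2438, 3183, 3239.8 and 1003 in DMSO and 1040.0, 1525, 648 and 442 after treatment. It fell in 4 of 4 lines (-1.45 ± 0.21, adjusted p = 0.0018 in limma). Gata4, a further factor of early pancreas and foregut, ranged from 1577 to 4292 with DMSO and from 1717 to 4868 with trametinib (0.12 ± 0.16, adjusted p = 0.54 in limma, 95% interval -0.25 to 0.49).

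Foxa3 was lower in 4 of 4 lines without passing (-0.68 ± 0.26, adjusted p = 0.066 in limma). It passed as lower with quantile normalization (-1.13, adjusted p = 0.019) and with each library centred on its median (-0.74, adjusted p = 0.041). Hnf4g, the paralog of Hnf4a, had 141 counts in the DMSO library of line #3, the other lines 1.59 to 21.9, and was not called (0.04 ± 0.62, adjusted p = 0.96 in limma). Sox8 and Sox10 did not reach a mean of 10, and Sox10 was at or under the floor in every library.

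**Figure D3:**
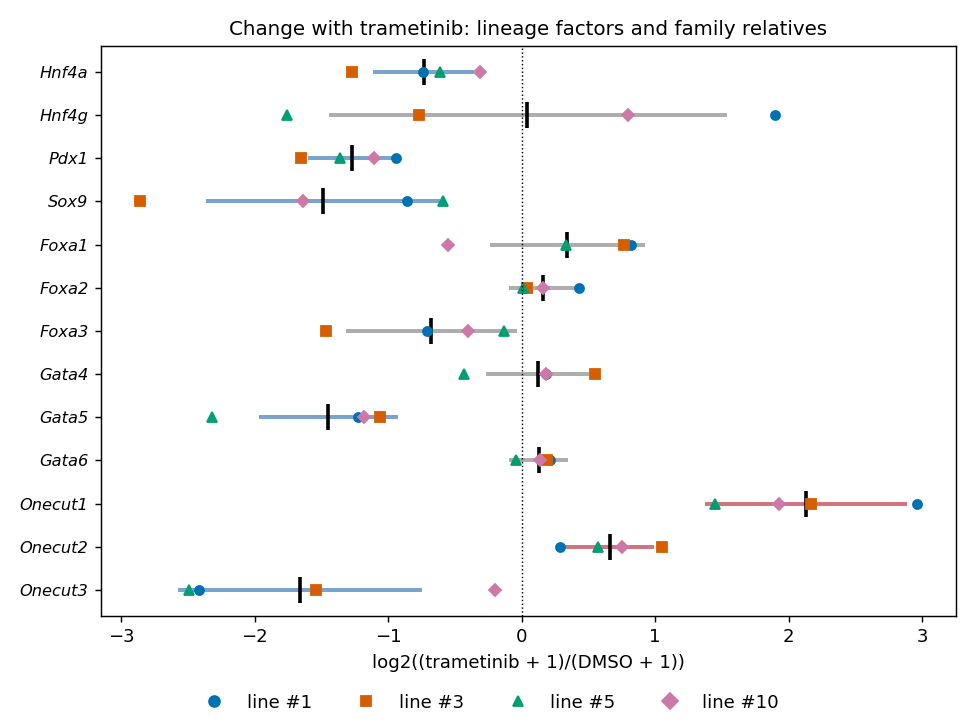
Change with trametinib for the 7 tested lineage factors and their 6 tested relatives, as the log2 ratio of trametinib to DMSO on the x axis, where symbols are cell lines, black ticks the fitted change and bars its 95% interval in limma, blue for lower, red for higher and grey for not called. Onecut1 and Onecut2 lie to the right of 0 in 4 of 4 lines, and Pdx1, Sox9, Hnf4a, Gata5 and Onecut3 to the left in 4 of 4.

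A wider list held 24 other factors of pancreas and endoderm, of which 22 were in the table and 9 tested. In limma, 4 were higher and 2 lower, where 53.0% of all genes were called, and the median change was 0.18.

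Cdx2, the homeobox factor of intestinal identity, was counted at 758, 3229, 1619 and 1419 in DMSO and at 210.3, 1229, 342 and 416 with trametinib. It fell in 4 of 4 lines (-1.81 ± 0.15, adjusted p = 0.00033 in limma). Rbpj, the DNA-binding partner of Notch and, in early pancreas, of Ptf1a, also fell (-0.66 ± 0.12, adjusted p = 0.0044). Glis3, a zinc finger factor of ducts and beta cells, rose (1.61 ± 0.10, adjusted p = 0.0002 in limma), with lines from 1.3 to 1.75.

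Sox17, a factor of definitive endoderm and the biliary tract, rose (0.68 ± 0.16, adjusted p = 0.01 in limma, and 0.60 without the block). Mafa, an activator of insulin genes, was at 3.12 to 17.3 with DMSO and 20.6 to 52.9 with trametinib (1.82 ± 0.39, adjusted p = 0.0077 in limma). The remaining higher gene was Prox1, chosen after its values were seen, which had no counts in line #1 with either treatment and higher values in the other 3 lines (1.73 ± 0.54, adjusted p = 0.033 in limma). Its call was lost with a pseudocount of 0.1, quantile normalization, no filter or no block (adjusted p = 0.059, 0.054, 0.065 and 0.42 in limma) and without line #3, #5 or #10 (adjusted p = 0.085, 0.12 and 0.11). Mafa and Prox1 had DMSO means of 9.48 and 9.99 and reached the mean of 10 only through the trametinib libraries, so their part in the count of higher factors is no support for it. The endocrine factors Nkx2-2 and Neurod1 were listed at 0 in every library, but others of the list were detected. Insm1 stood at 2.08 to 27.2 with DMSO and was not called (-1.37 ± 0.57, adjusted p = 0.08 in limma). It reached the mean of 10 only through its DMSO libraries. Pax6, at 1.16 to 20.3 with DMSO, did not reach that mean.

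Ductal genes moved in both directions. All 13 listed were tested, with 5 higher and 6 lower in limma and a median change of -0.62, where 27.3% of all genes were higher and 25.6% lower. The chloride channel gene Cftr fell (-2.28 ± 0.19, adjusted p = 0.00033), from 409 to 951 normalized counts in DMSO to 81.6 to 172 with trametinib. Car2, a carbonic anhydrase (-1.36 ± 0.21, adjusted p = 0.0022), Spp1, encoding osteopontin (-1.09 ± 0.22, adjusted p = 0.0061), and the keratin gene Krt7 (-0.97 ± 0.23, adjusted p = 0.012) fell too, and Krt7 did not pass without line #5 (adjusted p = 0.053). Without the block, Spp1, Krt7, Prom1 and Tff2 did not pass (adjusted p = 0.12, 0.16, 0.4 and 0.17 in limma). By contrast, Bicc1 (1.98 ± 0.08, adjusted p = 8.1e-05) and Pkhd1 (1.96 ± 0.17, adjusted p = 0.00036), both linked to cystic disease, rose, as did Prom1 (1.17 ± 0.24, adjusted p = 0.0063). Tff2 was higher (1.63 ± 0.48, adjusted p = 0.026), but line #5 moved by 0.02, and the call was lost without line #1, #3 or #10 (adjusted p = 0.067, 0.065 and 0.1 in limma) and with quantile normalization (1.24, adjusted p = 0.075).

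Of 21 gastrointestinal and liver genes, 15 were tested, with 4 higher and 4 lower in limma and a median change of 0.06, so that the share called was near the 53.0% of all genes. Cdh17, encoding the liver and intestine cadherin, was counted at 6402, 27923, 23659 and 18549.8 in DMSO and at 293, 1713, 1596 and 1701 with trametinib. It fell in 4 of 4 lines (-3.95 ± 0.16, adjusted p = 7.8e-05 in limma). The brush border gene Cdhr2 (-1.44 ± 0.19, adjusted p = 0.0014), the galectin gene Lgals4 (-1.29 ± 0.28, adjusted p = 0.0084) and the tetraspanin gene Tspan8 (-0.90 ± 0.14, adjusted p = 0.0021) fell as well. Without the block, Cdhr2 and Lgals4 did not pass (adjusted p = 0.061 and 0.15 in limma).

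Apob, encoding the main protein of lipoprotein particles and a known Hnf4a target in liver, rose while Hnf4a fell. Its counts were 41548, 772, 7372 and 33765 in DMSO and 133798, 19880.1, 58417 and 164010.0 with trametinib. The change was 2.91 ± 0.44, adjusted p = 0.002 in limma, and the adjusted p was 0.11 without the block. Of the same list, Apoa1 (-0.19 ± 0.42, adjusted p = 0.73), Apoa2 (-0.35 ± 0.45, adjusted p = 0.54) and Mttp (-0.08 ± 0.15, adjusted p = 0.69) were not called in limma. A link of these genes to the fall of Hnf4a was not tested. Ttr, the gene of transthyretin, rose (2.48 ± 0.29, adjusted p = 0.00086 in limma). Alb was called higher (2.68 ± 0.59, adjusted p = 0.0087 in limma), from 2.77 to 9.55 with DMSO, near the floor, and with a DMSO mean of 5.07 it was tested only through its trametinib libraries. In line #3 Alb moved by 0.46, against 3.07 to 3.76 in the others, and without that line its change was 3.42. Without line #3, the change of Apob was 2.32. Ihh rose (1.06 ± 0.25, adjusted p = 0.012 in limma), moving by 0.1 in line #3, and did not pass without line #1 (adjusted p = 0.051) or without the block (adjusted p = 0.66).

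**Figure D4:**
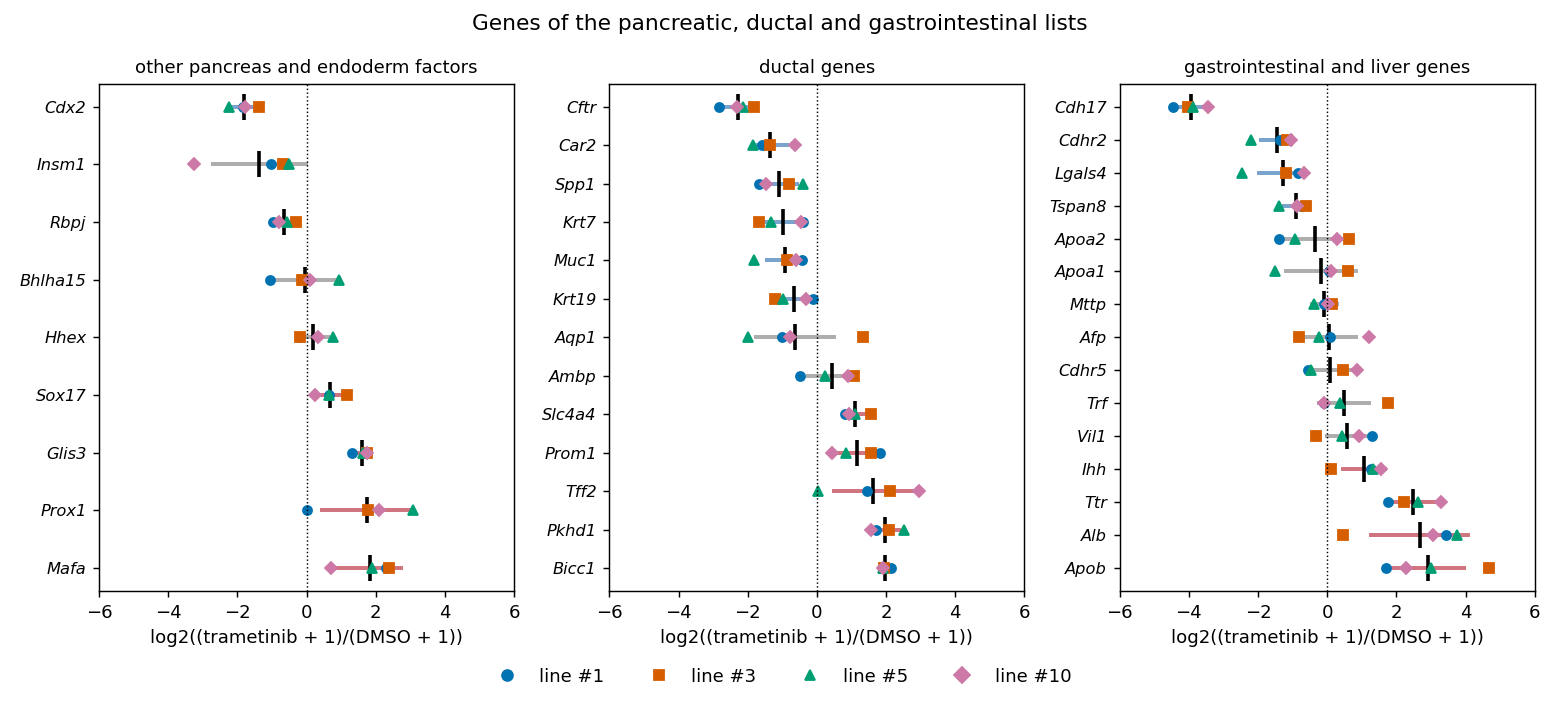
Change with trametinib, as the log2 ratio of trametinib to DMSO on the x axes, for every tested gene of 3 lists, where symbols are cell lines, black ticks the fitted change and bars its 95% interval in limma, blue for lower, red for higher and grey for not called. Each list holds genes on both sides of 0, from Cdh17 at -3.95 to Apob at 2.91.

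The genes with the profile most like that of each factor over the 8 libraries were found by the root mean square difference of log2 values, each gene centred on its own mean. For Pdx1 these were Mrpl12 and C1qbp, at 0.07 each, where the profile of Pdx1 itself had a root mean square of 0.66. For Hnf4a they were Cpsf2 and Sgf29 at 0.12, for Onecut2 Yipf4 at 0.09 and Retreg3 at 0.11, and for Gata6 1700086O06Rik at 0.07 and Dnajc1 at 0.12. For Foxa2, Rab1a lay at 0.07, beside a gene whose symbol reads as a calendar date and is left unnamed. For Sox9 they were Lrfn5 at 0.59 and Pgam1-ps2 at 0.6, and for Foxa1 AC141438.1 at 0.25 and Myh10 at 0.26. The root mean square of the profile itself was 0.5 for Hnf4a, 0.43 for Onecut2, 0.37 for Gata6, 0.18 for Foxa2, 1.33 for Sox9 and 0.64 for Foxa1, so a small difference means less for a factor that varied little.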

How the data were processed

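Stranded mRNA libraries were made from 4 murine PDAC lines with DMSO or trametinib. What the authors deposited are normalized counts, read here as a signal that is comparable between libraries. The submitters' processing notes name Salmon 0.12, DESeq2 1.18, CASAVA 2.17 and mm10, without roles. All 8 columns were used, and 3398 of 34478 genes were at 0 throughout. After log2(value + 1), limma 3.58.1 (R 4.3.3, eBayes with trend) was run with the cell line as a block on the 15888 genes whose mean reached 10, with Benjamini-Hochberg adjustment at 0.05, and was tested on simulated data. Both libraries of a number are 1 cell line, per the labels, and their deviations from the group means correlated at 0.631 to 0.724 across genes. Changes on this scale understate those of low genes. The value of 1 read was the most frequent low value of a library, 0.78 to 1.24. Gene positions and lengths were matched by symbol in GENCODE M21 (GRCm38).

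The members and gene lists were chosen with earlier results of these data known. Named are the 8 factors, all relatives, annotated genes within 10 kb that are in the table, the 2 nearest profiles, and from each further list up to 4 genes per direction that passed in 1 direction in 4 of 4 lines; for the lists that describe the cells, counts and selected markers are given. Alternatives were pseudocounts of 0.1 and 5, equal totals, quantile normalization, median centring, no filter or one at 50, no block, eBayes without trend or robust, and each line left out. Some genes are not reported here. P-values measure the spread between these 4 lines. Python 3.11.15, pandas 2.3.3, numpy 2.4.6 and matplotlib 3.10.9 were used.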

Additional observations from a re-analysis of the deposited data

Results flagged for a closer look

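Among 39 sets of 4 values (DMSO levels, trametinib levels and changes of the 13 tested factors and relatives), 4 held a line that stood apart, where chance gives about 1.95, or 1 in 20. For Sox9 it was line #5, whose trametinib library held 828 normalized counts, against 65.5 to 162 elsewhere. For Gata5 it was the change in line #5, -2.32 (log2), against -1.23 to -1.06. For Hnf4g it was line #3, at 141 in DMSO, against 1.59 to 21.9, and at 82.4 after trametinib, against 5.75 to 10.5.

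The lines moved in opposite directions for Foxa1 and Gata6 among the 8 factors, a difference that was not tested because each line has 1 library per treatment. Foxa1 changed by -0.55 (log2) in line #10 and by 0.33 to 0.82 in the others. Gata6 changed by -0.04 in line #5 and by 0.14 to 0.21 in the others. Among the relatives, Gata4 changed by -0.43 in line #5 and by 0.18 to 0.55 in the others, and Hnf4g by 1.9 and 0.8 in lines #1 and #10 and by -0.77 and -1.76 in lines #3 and #5, also not tested.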

How the results depend on the processing

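Pdx1 and Onecut2 passed in the same direction under all 14 alternatives, with log2 fold changes of -1.37 to -1.14 and 0.53 to 0.91. Sox9 and Hnf4a passed in 13 of 14. Without the replicate block, the pairing of libraries by line, their values were -1.49 (adjusted p = 0.17) and -0.73 (adjusted p = 0.054), 2205 genes were higher and 2347 lower, 1 relative was lower, 2 other pancreas and endoderm factors were higher, 3 ductal genes were higher and 2 lower, and 2 gastrointestinal and liver genes were higher and 2 lower. A filter at a mean of 50 left 2 other factors higher, since fewer genes were tested. With equal totals, Foxa2 and Gata6 passed at 0.28 and 0.25. With a line left out, Foxa1 ran from 0.18 to 0.64, passing without line #10, Gata4 from -0.02 to 0.30, Hnf4g from -0.58 to 0.64 (it was under the filter without line #3) and R3hdml, a gene beside Hnf4a, from -0.12 to 0.22. R3hdml was at -0.26 with quantile normalization, against 0.07. Hnf4g, at 0.04 as reported, was at -0.12 with a pseudocount of 5, at -0.43 with quantile normalization and at -0.02 with median centring; the cause was not tested. Depth limits Ptf1a and Sox10, at or under 3 reads in every library. It also limits Sox8, at or under 3 reads in 5 of 8 libraries and at most at 4.52 normalized counts.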
